A study of Mus musculus with 24 samples.

Results

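CD41 sp and VE sp cells of non-induced mouse embryoid bodies were compared on 6 of the 24 arrays of the series, 3 per fraction. The members were the arrays whose titles name no ICN1 induction and 1 of these fractions. Embryoid bodies are balls of cells that stem cells form as they differentiate in a dish. They came from the mouse embryonic stem cell line Ainv15, in which doxycycline switches on ICN1, the part of the Notch1 receptor that enters the nucleus. They were dissociated on day 6 and sorted. Neither group received the induction, so both stand for the line without added ICN1. Used for comparison were the same fractions after induction from day 3 to day 5, again 3 arrays each. The DP and DN fractions of the non-induced bodies are given as levels only. The labels do not spell out CD41 sp, VE sp, DP and DN, and do not say whether the replicates are separate cultures. P-values therefore rest on array-to-array spread alone, part of which may be technical.

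In the embryo, the first blood cells and the first vessels arise side by side from mesoderm. CD41, the alpha-IIb integrin subunit encoded by Itga2b, appears on cells as they enter the blood lineage and stays on megakaryocytes and platelets. VE-cadherin, encoded by Cdh5, holds endothelial cells together at their junctions. Some early endothelial cells produce blood cells, and Notch signalling, the SoxF factors and Runx1 take part in that step.

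Levels below are normalized log2 intensities, and differences are log2 CD41 sp minus VE sp ± SE with n = 3 per group. Adjusted p-values are limma's with Benjamini-Hochberg adjustment over 9591 gene symbols, and a gene was called under 0.05. Unless a block by replicate number is named, SE and adjusted p-values leave out the pairing of the arrays. The mean raw intensity was 522, 474 and 393 on the CD41 sp arrays and 508, 458 and 165 on the VE sp arrays. VE sp replicate 3 was the dimmest of the 24 arrays, with 41.8% of probes detected. Arrays of 1 group correlated at 0.958 to 0.972 in CD41 sp and 0.947 to 0.975 in VE sp. The number of arrays limits the precision. In sorted bulk samples, fewer cells of a type and less RNA per cell cannot be told apart.

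The genes that the fraction names point to, Itga2b and Cdh5, differed in the direction of those names. Cdh5 had levels of 9.87, 10.16 and 11.06 in VE sp and was not detected on any CD41 sp array. Its level was at least 40.05-fold higher in VE sp (adjusted p = 1.03e-11). Itga2b had levels of 10.85, 11.36 and 10.79 in CD41 sp and 9.71, 9.05 and 9.81 in VE sp. Its groups did not overlap, with a log2 difference of 1.47 ± 0.24 (2.78-fold, adjusted p = 5.60e-05). VE sp was thus not devoid of Itga2b transcript: its mean level there was 9.52, against 7.91 ± 0.14 in DN and 11.27 ± 0.21 in DP (SD).

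The fractions differed at 2763 of the 9591 symbols, or 28.8%. Of these, 1374 (14.3%) were higher and 1389 (14.5%) lower in CD41 sp. With the replicate number as a block the counts were 2543 (26.5%) and 2023 (21.1%). Under median scaling they were 832 and 714, and without VE sp replicate 3 they were 1092 and 1264. List counts given below for these settings stand against these totals. Those of the main analysis stand against 14.3% of all symbols higher and 14.5% lower. Differences over 2-fold were called at 735 genes higher and 996 lower in CD41 sp. Beyond 8-fold the balance moved further toward VE sp, with 76 higher and 182 lower. Among the called genes, 119 of the higher ones were not detected on any VE sp array, and 287 of the lower ones on no CD41 sp array. All 3 CD41 sp arrays lay above all 3 VE sp arrays at 1959 symbols (20.4%), and all below at 1735 (18.1%), called or not. The plot of level against difference shows both wings.

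**Figure D1:**
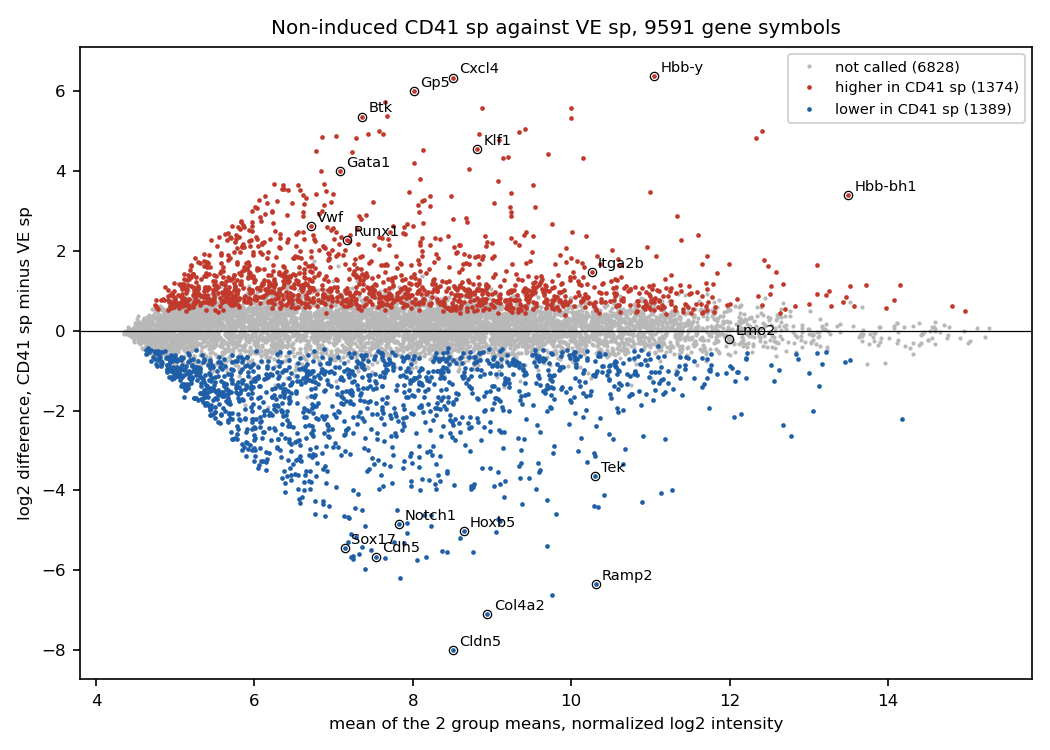
Each point is 1 of 9591 gene symbols, with the mean of both group means (normalized log2 intensity) on the x axis and the log2 difference CD41 sp minus VE sp on the y axis. Red points (1374) were called higher and blue points (1389) lower in CD41 sp at an adjusted p under 0.05, grey points were not called, and the named genes are described in the text.

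The largest differences toward CD41 sp were at red cell and platelet genes. Hbb-y, an embryonic beta-type globin, had levels of 14.31, 14.58 and 13.85 in CD41 sp and 7.58, 8.57 and 7.41 in VE sp. The difference was 6.39 ± 0.58 on the log2 scale, or 84.0-fold (adjusted p = 1.69e-08). Cxcl4 (current symbol Pf4), platelet factor 4, had levels of 11.57, 13.04 and 10.44 in CD41 sp and 5.26, 6.08 and 4.67 in VE sp. Its difference was 6.35 ± 0.69 (81.4-fold, adjusted p = 2.83e-07). Gp5, a subunit of the platelet receptor for von Willebrand factor, differed by 6.00 ± 0.51 (64.2-fold). Both platelet genes varied more among the CD41 sp arrays than Hbb-y did, and replicate 2 was the highest for each. Treml1, a platelet granule receptor, followed at 5.74 ± 0.31, and Sla, an adaptor that dampens antigen receptor signalling, at 5.58 ± 0.37.

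The leading genes also included Eraf (current symbol Ahsp), the alpha-globin chaperone, Trim10, Btk, Slc38a5, Hba-a1, Mllt3, Alas2 and Tmod1. Their log2 differences lay between 4.92 and 5.58. Btk, a tyrosine kinase of blood cells, was not detected on any VE sp array and was at least 32.9-fold higher in CD41 sp (adjusted p = 2.51e-11). Its levels in CD41 sp were 9.72, 10.76 and 9.65. Trim10, an erythroid gene of the tripartite motif family, differed by 5.39 ± 0.31 (42.0-fold).

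The largest difference toward VE sp was at Cldn5, the tight-junction claudin of endothelium. Its levels were 11.80, 12.67 and 13.06 in VE sp and 4.53, 4.49 and 4.48 in CD41 sp, where it was not detected. It was at least 177-fold lower in CD41 sp (adjusted p = 1.03e-11). The basement membrane collagens Col4a2 and Col4a1 came next, with log2 differences of -7.10 ± 0.33 and -6.61 ± 0.35. Col4a2 had levels of 12.16, 13.09 and 12.23 in VE sp and 5.44, 5.47 and 5.26 in CD41 sp. Ramp2, which makes the calcitonin-like receptor respond to adrenomedullin, differed by -6.34 ± 0.31 and was detected on every array of both fractions. Its levels were 13.39, 13.61 and 13.44 in VE sp and 7.21, 6.89 and 7.32 in CD41 sp.

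Among the same 15, Mmrn2, Ptprb and Emcn were not detected on any CD41 sp array and were at least 40.4-fold, 32.4-fold and 32.6-fold lower there. They encode an endothelial matrix protein, the VE-cadherin-associated phosphatase and the sialomucin endomucin. Agtrl1 (current symbol Aplnr), the apelin receptor, C1qr1 (Cd93), Rasgrp3, Sox7, CRG-L1 (Acer2) and Rasip1 differed by -5.54 to -6.20 on the log2 scale. For Robo4 (-5.61 ± 0.41) the probe used was not detected in CD41 sp, while another probe of that symbol was.

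**Figure D2:**
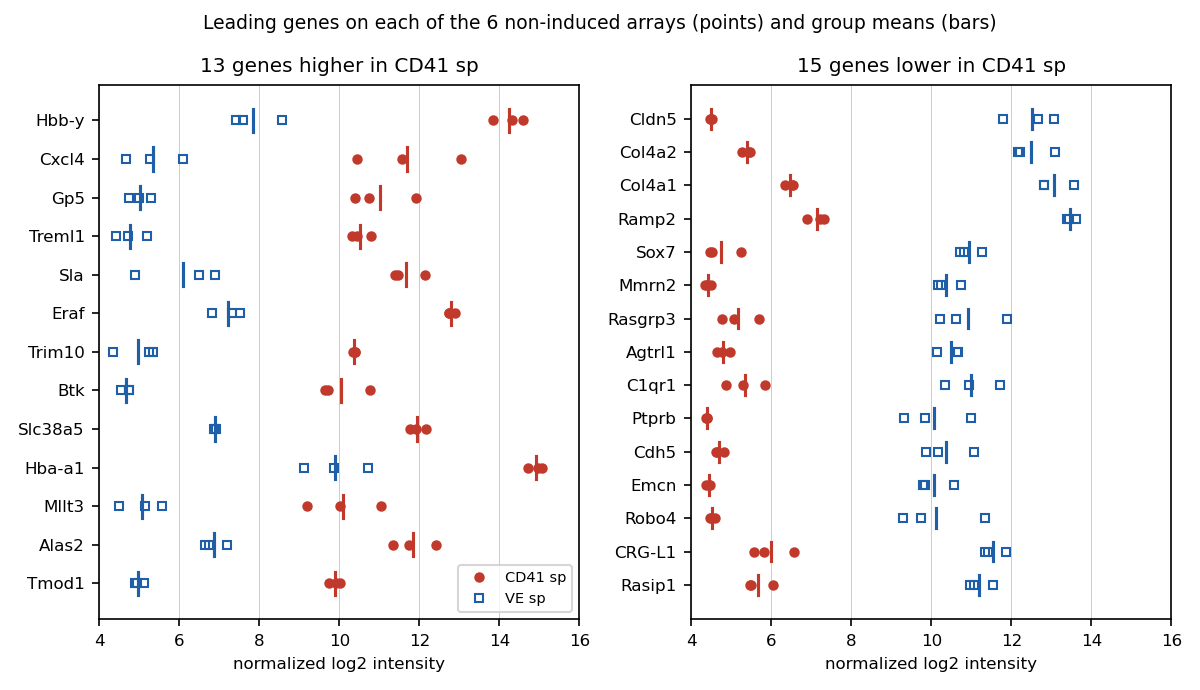
Normalized log2 intensity (x axis) of 28 of the 30 genes with the largest differences, 13 higher and 15 lower in CD41 sp, on each non-induced array (red circles, CD41 sp; open blue squares, VE sp; 3 arrays each), with group means as bars. In all 28 genes the 3 arrays of CD41 sp lie apart from the 3 of VE sp.

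The region before the start of 6 genes is printed here, 3 from each wing: an erythroid enzyme, a globin and a platelet receptor, then a junction gene, a Rap1 effector and a Notch receptor. Each sequence holds the 250 bases before the start that RefSeq gives on build GRCm38.p6, 5′ to 3′ on the gene's strand. Alas2 lies at chrX:150547167-150547416, plus strand, Hbb-y at chr7:103853208-103853457, minus strand and Gp5 at chr16:30310782-30311031, minus strand. Cldn5 lies at chr16:18776597-18776846, plus strand, Rasip1 at chr7:45627287-45627536, plus strand and Notch4 at chr17:34564045-34564294, plus strand. Capitals mark matches, on either strand, to 4 motifs: AGATAA or TGATAA, read by GATA factors, CCNCACCC of the Klf1 type, AGGAAG of the ETS type, and GTGGGAA, read by the Notch partner Rbpj.
Alas2: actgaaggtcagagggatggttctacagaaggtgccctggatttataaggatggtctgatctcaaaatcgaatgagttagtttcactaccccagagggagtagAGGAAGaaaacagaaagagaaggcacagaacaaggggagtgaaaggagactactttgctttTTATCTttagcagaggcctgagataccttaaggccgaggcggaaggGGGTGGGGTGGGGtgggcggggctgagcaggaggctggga
Hbb-y: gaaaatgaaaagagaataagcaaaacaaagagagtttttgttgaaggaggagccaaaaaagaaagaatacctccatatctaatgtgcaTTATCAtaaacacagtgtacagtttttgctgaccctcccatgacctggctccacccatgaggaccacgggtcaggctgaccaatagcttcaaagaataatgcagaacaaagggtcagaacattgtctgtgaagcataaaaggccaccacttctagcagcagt
Gp5: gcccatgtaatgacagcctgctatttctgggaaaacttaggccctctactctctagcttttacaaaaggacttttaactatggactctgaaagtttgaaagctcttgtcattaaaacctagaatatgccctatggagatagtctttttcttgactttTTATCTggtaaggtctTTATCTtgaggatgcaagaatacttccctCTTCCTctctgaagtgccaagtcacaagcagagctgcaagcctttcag
Cldn5: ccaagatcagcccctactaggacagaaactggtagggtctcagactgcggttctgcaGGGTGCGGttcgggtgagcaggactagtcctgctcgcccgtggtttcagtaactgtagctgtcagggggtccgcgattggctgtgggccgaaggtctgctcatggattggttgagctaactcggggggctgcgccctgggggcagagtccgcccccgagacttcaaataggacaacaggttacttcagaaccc
Rasip1: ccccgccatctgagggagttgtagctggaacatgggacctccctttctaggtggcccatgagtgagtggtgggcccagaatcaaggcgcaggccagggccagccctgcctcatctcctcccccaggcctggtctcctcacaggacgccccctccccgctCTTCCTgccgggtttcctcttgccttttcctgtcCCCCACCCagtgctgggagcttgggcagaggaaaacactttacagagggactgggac
Notch4: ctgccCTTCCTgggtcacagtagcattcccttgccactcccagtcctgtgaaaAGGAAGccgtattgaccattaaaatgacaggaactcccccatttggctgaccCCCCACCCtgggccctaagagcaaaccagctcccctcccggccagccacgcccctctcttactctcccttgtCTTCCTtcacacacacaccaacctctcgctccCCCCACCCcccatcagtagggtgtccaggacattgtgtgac

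Alas2 held a GATA match 86 bases before the start and 2 Klf1-type matches, 40 and 35 bases before it, that overlap each other, and 1 ETS match at 147 bases. Gp5 held GATA matches 93 and 77 bases before its start and 1 ETS match 48 bases before it. Hbb-y had 1 GATA match, at 162 bases. Notch4 held 3 ETS and 2 Klf1-type matches, Rasip1 1 of each, and Cldn5 1 Klf1-type match and none of the others. Of the genes called over 8-fold higher in CD41 sp, 55 had 62 promoters in the table, and 27.4% of these held a GATA motif. The share was 11.1% of 153 promoters of genes called over 8-fold lower, 9.5% over 9490 promoters of tested genes and 16.6% over all 32851 promoters. ETS motifs were held by 35.5%, 37.3%, 27.7% and 29.5% in the same order. Klf1-type motifs were held by 27.4%, 22.2%, 18.4% and 14.9%, and Rbpj motifs by 1.6%, 5.9%, 5.1% and 5.4%. These shares are descriptions of letters in these windows.

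Genes of hemoglobin and its chaperone were all higher in CD41 sp. All 7 tested members were called (14.3% of all symbols were called higher), with a median log2 difference of 4.84 against 0.10 over all symbols. Hba-x, the embryonic zeta-type globin, had levels of 14.88, 14.76 and 14.62 in CD41 sp and 9.70, 10.14 and 9.88 in VE sp. Hba-a1 differed by 5.02 ± 0.46. Hbb-bh1, another embryonic beta-type globin, differed by 3.41 ± 0.29 (10.6-fold) and kept levels of 11.45, 12.02 and 11.92 in VE sp. The adult-type genes Hbb-b2 and Hbb-b1 were not detected in VE sp and were at least 5.53-fold and 1.58-fold higher in CD41 sp. Globin genes of 1 family are near-identical, and how far each probe tells them apart was not tested.

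Heme and iron genes followed, with 15 of 16 tested members called higher and none lower. Alas2, the erythroid enzyme that starts heme synthesis, had levels of 11.74, 12.41 and 11.35 in CD41 sp and 6.75, 7.19 and 6.63 in VE sp (31.5-fold). Tfrc, the transferrin receptor that brings in iron, differed by 2.88 ± 0.19, and Mscp (Slc25a37), which carries iron into mitochondria, by 2.42 ± 0.38. The remaining enzymes of the pathway differed less: Uros by 2.33 ± 0.29, Cpox by 2.17 ± 0.46, Fech by 1.91 and Urod by 1.62 on the log2 scale. Fth1, the ferritin heavy chain, was the 1 member not called, at 0.00 (adjusted p = 0.989).

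Of 19 tested genes of the red cell membrane and its skeleton, 15 were higher and 3 lower in CD41 sp. Tmod1, which caps actin filaments in the membrane skeleton, differed by 4.92 ± 0.27, the anion exchanger Slc4a1 by 4.06 ± 0.74 and Ank1 (ankyrin) by 3.65 ± 0.40. The 3 lower members were Aqp1, Cd59a and Slc2a1, a water channel, a complement inhibitor and a glucose transporter. Aqp1 and Cd59a differed by -2.55 and -2.43, and all 3 are also made by endothelium. The Slc2a1 call (-1.02) was lost in 8 alternatives, among them the runs without CD41 sp replicate 1 or 2 and without VE sp replicate 2 or 3 (adjusted p = 0.0574 to 0.495).

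Megakaryocyte and platelet genes gave 29 higher and 1 lower call among 34 tested members, with a median log2 difference of 2.46. The 3 subunits that join Gp5 in its receptor were called: Gp1bb was not detected in VE sp (at least 19.5-fold higher in CD41 sp), Gp9 differed by 4.82 ± 0.27 and Gp1ba by 3.15. Slc35d3, needed for platelet dense granules, differed by 4.49 ± 0.32. Itgb3, the partner of the CD41 integrin subunit, differed by 1.60. Gng11, a G protein gamma subunit also found in endothelium, was the 1 lower member (-2.00). Of the thrombin receptor genes in the list, F2rl2 was called higher in CD41 sp (4.02 ± 0.36). F2r and F2rl3 had differences of -0.84 and -0.62 and were not called (adjusted p = 0.0548 and 0.216). With the replicate block both were called lower (adjusted p = 0.00107 and 0.0411), and the list gave 29 higher and 3 lower. Without VE sp replicate 3 it gave 27 higher and 2 lower.

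Transcription factors of the red cell and megakaryocyte lines were higher in CD41 sp, while the factors shared by blood and endothelium were not called or differed less. Klf1, the erythroid Kruppel-like factor, had levels of 11.33, 10.64 and 11.29 in CD41 sp and 7.14, 6.44 and 6.03 in VE sp (log2 difference 4.55 ± 0.32, 23.4-fold). Gata1 had levels of 9.22, 8.72 and 9.31 against 5.58, 4.72 and 4.93 (16.1-fold), and was detected on 1 of the 3 VE sp arrays. Nfe2, Cited4 and Gfi1b differed by 3.47 ± 0.29, 3.45 ± 0.32 and 3.10 ± 0.27. They belong to a list of erythroid regulators and other erythroid genes, such as Car2 and Prdx2, of which 11 of 14 tested members were called higher and none lower.

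Runx1, which drives the change from endothelium to blood, had levels of 8.10, 8.99 and 7.84 in CD41 sp and 6.89, 6.26 and 4.95 in VE sp. The groups did not overlap, and the difference was 2.27 ± 0.57 (adjusted p = 0.00414). Tal1, a shared blood and endothelial factor, differed by 1.31 ± 0.31 (2.48-fold, adjusted p = 0.00254). Both calls were lost with the authors' processed values without a block (adjusted p = 0.0647 and 0.0960). Its partner Lmo2 had overlapping levels of 11.77, 12.09 and 11.79 against 11.88, 12.58 and 11.83. Fli1 (-0.78 ± 0.74, adjusted p = 0.481) and Gata2 (-0.67 ± 0.30, adjusted p = 0.0999) were not called, and with the replicate block Gata2 had an adjusted p of 0.0469. Sfpi1 (Spi1), the PU.1 factor, was called at 0.90 ± 0.31 (adjusted p = 0.0337), a call lost in 8 alternatives, among them the runs without CD41 sp replicate 1 or 3 and without VE sp replicate 2 or 3 (adjusted p = 0.0660 to 0.394). Kit and Erg did not pass the detection filter. Of 32 tested blood progenitor genes and blood regulators 13 were higher and 3 lower, and with the block 16 and 7.

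Of 37 tested small GTPase regulators, blood adaptors and kinases, 16 were higher and 8 lower in CD41 sp. Among the higher ones were Btk, Sla, the exchange factor Vav1 (3.22 ± 0.38) and the GTPase Rac2 (2.51). Among the lower ones were Rasgrp3, Rasip1, Arhgef15 (-5.32 ± 0.34) and Rhoj (-3.38 ± 0.28), known from vessel growth. Rac1, the widely expressed relative of Rac2, was among the lower ones at -1.18. Vav1 had levels of 8.39, 9.38 and 9.56 in CD41 sp and 5.74, 5.82 and 6.10 in VE sp.

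Myeloid genes were fewer among the calls, with 7 of 20 tested members higher and 1 lower (Lcp1, -1.52). The lower count was 2 with the replicate block and also without VE sp replicate 3. Coro1a, an actin regulator of white cells, had levels of 10.01, 9.95 and 9.79 against 6.38, 6.38 and 6.82. Ncf4, a subunit of the phagocyte oxidase, was not detected in VE sp and was at least 9.04-fold higher in CD41 sp. Ccl3, a chemokine, differed by 3.01 ± 0.33. Mpo and Prtn3, granule enzymes of myeloid cells, were not called (0.46, adjusted p = 0.385, and 0.27, adjusted p = 0.470). Over this list the mean level per array was 7.08 to 7.47 in CD41 sp and 6.29 to 6.53 in VE sp.

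Genes of endothelial junctions and surface had the median farthest toward VE sp of the 32 lists. Of 26 tested members 22 were lower in CD41 sp and none higher (14.5% of all symbols were called lower), with a median log2 difference of -4.07. For 13 of the 26 the probe used was not detected on any CD41 sp array. Robo4 and Mcam among them had another probe that was detected there, and Vcam1 was not detected in VE sp either. Beside Cldn5, Cdh5 and Emcn, the 13 included Xlkd1 (Lyve1), with levels of 9.05, 10.82 and 9.64 in VE sp and at least 27.8-fold lower in CD41 sp. Icam2, Plvap and Esam1 (Esam) differed by -5.52, -4.43 and -4.30. Pecam1, an adhesion molecule that platelets carry too, was detected on all CD41 sp arrays (7.59, 7.94 and 8.01 against 9.94, 10.76 and 10.30) and differed by -2.49 ± 0.27. Vcam1, Selp and Procr were not called (adjusted p = 0.775, 0.710 and 0.758).

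Endothelial receptors and signalling genes gave 25 lower calls and 1 higher call among 31 tested members. Tek, the angiopoietin receptor, had levels of 12.23, 11.98 and 12.18 in VE sp and 8.47, 8.22 and 8.73 in CD41 sp (12.6-fold). Flt1, a VEGF receptor, differed by -4.73 ± 0.31, and Tie1, the relative of Tek, by -3.11. Nos3, the endothelial nitric oxide synthase, was not detected in CD41 sp and was at least 28.3-fold lower there. Edn1 (endothelin 1) differed by -2.47, its receptor Ednrb by -3.11, and Ece1, the enzyme that activates it, by -3.45 ± 0.20. Vwf, von Willebrand factor, which both endothelium and megakaryocytes make, was the 1 member higher in CD41 sp. Kdr, a defining receptor of this lineage, did not pass the detection filter.

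Of 20 tested genes of vascular tone and lipid mediators, 6 were higher and 9 lower in CD41 sp. The platelet enzymes Alox12 (3.24 ± 0.51), Ptgs1 (1.45) and Tbxas1 (1.33), which make hydroxy acids and thromboxane, were higher in CD41 sp. Ptgis, which makes prostacyclin, was lower (-1.97). For nitric oxide, the synthase Nos3 was lower in CD41 sp, while both subunits of the nitric oxide receptor, Gucy1a3 (3.11 ± 0.33) and Gucy1b3 (3.19 ± 0.34), were higher in CD41 sp. Gucy1b3 had levels of 7.82, 8.92 and 7.91 in CD41 sp and 5.44, 5.28 and 4.39 in VE sp.

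Of 27 tested endothelial transcription factors, 16 were lower and 1 (Tal1) higher in CD41 sp, and with the replicate block 19 and 3. The SoxF factors led: Sox7 had levels of 11.27, 10.72 and 10.82 in VE sp and 4.46, 4.51 and 5.25 in CD41 sp, a difference of -6.20 ± 0.48. Sox17 was not detected in CD41 sp and was at least 28.4-fold lower there, and Sox18 differed by -4.78 ± 0.27 (27.4-fold). In the ETS family, Elk3 (-4.59 ± 0.24), Ets1 (-3.14) and Ets2 (-2.17) were lower. Fli1 was not called, with a wide spread (-0.78 ± 0.74), and Sfpi1 was higher, a call lost in 8 alternatives. Etsrp71 (Etv2), the ETS factor that opens the blood and vessel programme, had levels of 10.03, 9.61 and 10.31 in CD41 sp and 11.55, 10.95 and 12.20 in VE sp. Its difference of -1.59 ± 0.35 (adjusted p = 0.00151) was lost under median scaling (adjusted p = 0.0767).

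Both arterial and venous genes were lower in CD41 sp: 16 of 21 tested arterial members and 6 of 9 venous and lymphatic members, none higher. On the arterial side Efnb2, the ephrin of arteries, was not detected in CD41 sp (at least 8.05-fold lower) and the connexin Gja5 likewise (at least 4.76-fold lower). On the venous side its receptor Ephb4 differed by -1.94 ± 0.28. Ephb4 levels were 7.55, 7.13 and 8.11 in VE sp and 5.55, 5.64 and 5.79 in CD41 sp. The chemokine Cxcl12 and its receptor Cxcr4 were not called (adjusted p = 0.735 and 0.111), and with the replicate block Cxcr4 was called lower (adjusted p = 0.0252).

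**Figure D3:**
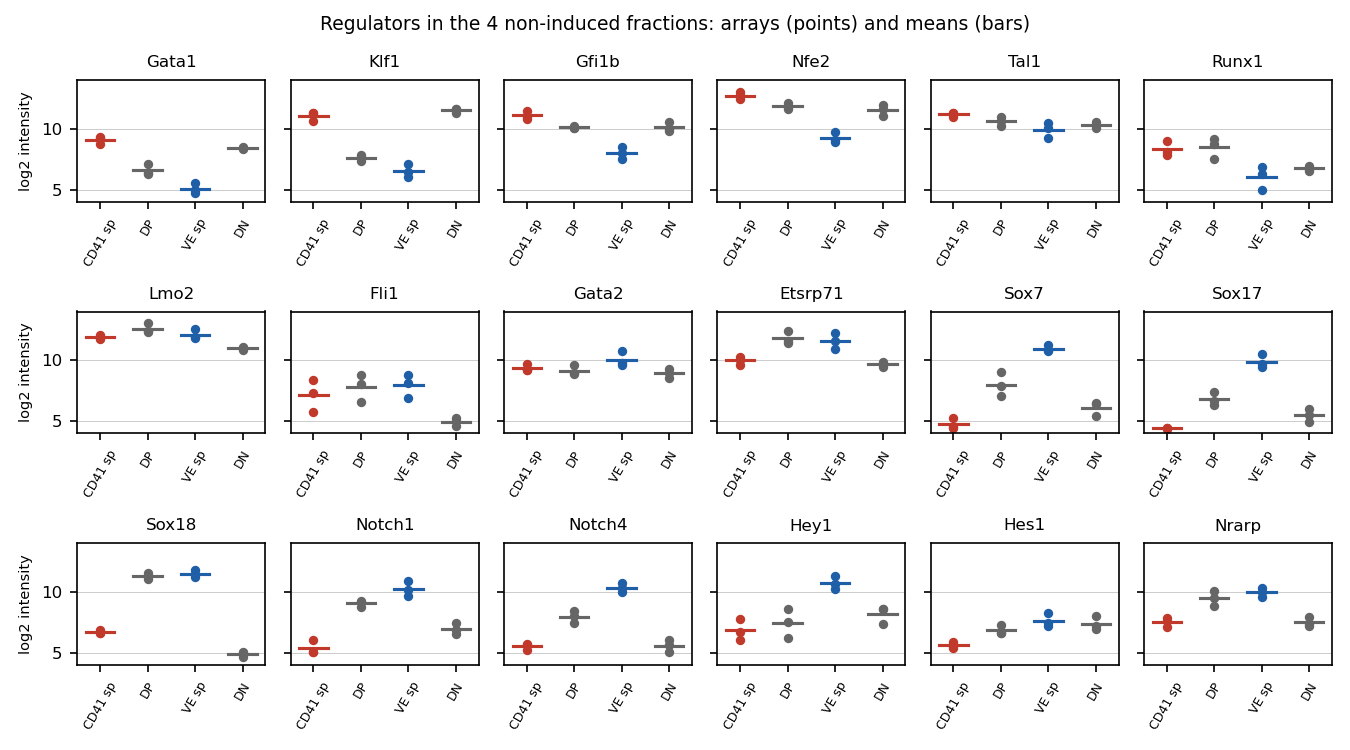
Normalized log2 intensity of 18 regulators on the arrays of the 4 non-induced fractions (points, 3 arrays each; bars, means; red, CD41 sp; blue, VE sp; grey, DP and DN). Klf1 and Gata1 are high in CD41 sp and DN, Sox18 and Notch1 in VE sp and DP, and Lmo2 spans a narrow range.

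Notch pathway genes were lower in CD41 sp at 13 of 33 tested members and higher at none, with a median log2 difference of -0.40. Among receptors, Notch1 had levels of 9.69, 10.13 and 10.90 in VE sp and 5.08, 5.09 and 6.04 in CD41 sp (28.6-fold). Notch4, the endothelial receptor, differed by -4.81 ± 0.29 (28.1-fold), Notch3 by -1.31 and Notch2 was not detected in CD41 sp (at least 1.17-fold lower). Mfng, a glycosyltransferase that tunes the receptors, differed by -3.61 ± 0.33. Ligands were near the detection limit. Dll4 was not detected in CD41 sp, had levels of 5.35, 5.45 and 4.66 in VE sp and was at least 1.08-fold lower (adjusted p = 0.00543). The Dll4 call was lost with the 6 arrays fitted alone (adjusted p = 0.0866) and with the authors' processed values (adjusted p = 0.141). Jag1 was not called (-0.55 ± 0.23, adjusted p = 0.0714), and with the replicate block its adjusted p was 0.0285.

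Among targets of Notch, Hey1, a repressor induced by Notch, had levels of 11.25, 10.23 and 10.61 in VE sp and 6.73, 6.08 and 7.76 in CD41 sp (-3.85 ± 0.61). Hey2 was not detected in CD41 sp and was at least 3.43-fold lower there. Nrarp, a feedback inhibitor, had levels of 9.96, 9.54 and 10.32 against 7.82, 7.13 and 7.61 (5.35-fold). Hes1 differed by -2.03 ± 0.39 (adjusted p = 0.000332), which was lost with the authors' processed values without a block (adjusted p = 0.0583). Of 2 related factors, Heyl (-0.15, adjusted p = 0.584) and Hes6 (0.35, adjusted p = 0.169) were not called. Other components (Dtx1, Jag2, Mib1 and the gamma-secretase gene Ncstn) were not called either, and with the block Ncstn was called lower (adjusted p = 0.0197). Under median scaling 8 members of the list were called lower, and with the block 17 lower and 1 higher.

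Matrix genes were lower in CD41 sp at 20 of 39 tested members and higher at none. Beside the type IV collagens, the basement membrane genes Hspg2 (perlecan), Nid1 and Nid2 (nidogens) differed by -5.21 ± 0.34, -3.88 and -3.18. Sparc, a collagen-binding protein, had levels of 11.49, 12.22 and 11.74 in VE sp and 7.72, 8.06 and 6.96 in CD41 sp. Vim (vimentin) differed by -4.08 ± 0.33 and Fbn1 (fibrillin 1) by -3.93 ± 0.34, and Mmp14, a membrane-bound protease, by -3.92. The fibroblast collagens Col1a1 and Col3a1, with Dcn, Lum, Pdgfra and Pdgfrb, were not called, and their mean level was at most 5.17 in either fraction. With the replicate block Pdgfra was called lower (adjusted p = 0.00867).

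Guidance and ephrin genes were lower in CD41 sp at 17 of 26 tested members, and higher at 1, Sema4d (1.14). Efna1 was not detected in CD41 sp and was at least 26.5-fold lower there. Gap43, a growth cone protein, had levels of 10.15, 10.62 and 9.88 in VE sp and 5.12, 4.61 and 4.42 in CD41 sp. The ligand Slit2 (-3.12 ± 0.41) and the receptors Robo1 (-2.95), Plxnd1 (-2.68) and Unc5b (-2.57) differed in the same direction.

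Integrins and tetraspanins were split, with 8 of 26 tested members higher and 11 lower in CD41 sp. Among beta subunits, Itgb3, Itgb2, Itgb7 and Itgb4 were higher, by 1.60, 1.40, 1.39 and 1.00 on the log2 scale, and Itgb5 was lower (-1.54). Among alpha subunits, Itga3 was not detected in CD41 sp (at least 11.3-fold lower), as were Itga9 (at least 3.66-fold) and Itga1 (at least 2.78-fold), and Itga5 differed by -2.08. Itga6 (-0.82, adjusted p = 0.223), Itgav (-0.21, adjusted p = 0.720) and the common beta subunit Itgb1 (-0.08, adjusted p = 0.847) were not called. With the replicate block Itga6 was called lower (adjusted p = 0.0235). Tspan32, a blood tetraspanin, had levels of 11.19, 11.93 and 11.32 in CD41 sp and 6.90, 6.81 and 6.40 in VE sp.

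BMP and TGF-beta genes were lower in CD41 sp at 18 of 32 tested members and higher at 1, the ligand Tgfb1 (1.04). Tgfbr2, the type II receptor, had levels of 11.16, 12.03 and 11.43 in VE sp and 7.13, 7.81 and 7.75 in CD41 sp. The coreceptor Eng differed by -3.31 ± 0.24 and the signal carrier Smad1 by -2.74 ± 0.32. The BMP targets Idb3 (Id3) and Idb1 (Id1) differed by -2.41 ± 0.41 and -2.32 ± 0.41, and the ligand Bmp4 by -2.03 ± 0.34. Under median scaling 8 members were called lower and none higher. That scaling moved the median of all symbols from 0.10 to 0.33, and the list's median was -0.53 there and -0.76 in the main analysis.

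Homeobox genes were called in both directions. Of 19 tested Hox, Meis and Pbx genes, 11 were lower in CD41 sp, all of them Hox genes, and 2 were higher, among them the Hox cofactor Meis1 (1.26). Under median scaling 10 were lower and 1 higher. Hoxb5 had levels of 11.46, 11.29 and 10.72 in VE sp and 6.29, 5.66 and 6.42 in CD41 sp (32.6-fold). Hoxb7 and Hoxb6 were not detected in CD41 sp and were at least 10.3-fold and 9.80-fold lower there. Hoxb2, Hoxb4 and Hoxd8 differed by -3.77 ± 0.48, -3.65 ± 0.36 and -3.31 ± 0.36. Hoxa2 and Hoxc6 were not called. Hlx1 (Hlx), a homeobox gene of another class, differed by -2.83 ± 0.23.

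Wnt genes were lower in CD41 sp at 7 of 24 tested members and higher at 1 (Wnt5a, 1.17 ± 0.29). Under median scaling 3 were called lower and none higher. The Wnt5a call was lost in 4 alternatives (adjusted p = 0.051 to 0.162), among them the mean of the symbol's probes, which gave a log2 difference of 0.69. The probe annotated Tcf3, a symbol used for more than 1 factor, had levels of 10.83, 10.40 and 10.38 in VE sp and 6.54, 5.45 and 5.75 in CD41 sp. Fzd10, a Wnt receptor, differed by -1.91 ± 0.33. Ctnnb1 (beta-catenin) differed by -1.27 ± 0.29, which was lost under median scaling (adjusted p = 0.330).

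Of 21 tested cytokine receptors 7 were lower and 2 higher in CD41 sp (over all symbols, 14.5% and 14.3%), and 12 were not called. Under median scaling 5 were lower and 2 higher. Among the higher ones was Epor, the erythropoietin receptor, with levels of 9.51, 9.16 and 9.11 against 7.10, 6.22 and 6.44. The lower ones included Il6st, the shared gp130 subunit (-2.12 ± 0.29), Tnfrsf1a (-1.67 ± 0.34) and Lifr, which was not detected in CD41 sp (at least 1.79-fold lower).

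Cell cycle genes leaned toward CD41 sp, with 16 of 37 tested members higher and 2 lower. E2f2, an S-phase factor of erythroid cells, had levels of 9.73, 10.71 and 9.29 in CD41 sp and 7.61, 7.46 and 6.25 in VE sp. Rb1 (1.97 ± 0.48), Tk1 (1.34), Ccne1 (1.40) and Top2a (0.92) were also higher. Cyclin genes differed in kind: Ccnd3 was higher (1.17), Ccnd1 had levels of 10.65, 11.41 and 10.09 in VE sp and 6.99, 6.46 and 6.81 in CD41 sp, and Ccnd2 was not called (adjusted p = 0.902). Among inhibitors, Cdkn2d (1.78 ± 0.24) and Cdkn2c (1.43 ± 0.24) were higher, and the imprinted Cdkn1c was lower (-2.95 ± 0.39). The helicase genes Mcm2 to Mcm7 were not called in the main analysis. Without VE sp replicate 3, 10 members of the list were called higher and 2 lower. Under median scaling the counts were 11 and 2, and with the replicate block 22 and 2.

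In glycolysis and hypoxia, 6 of 25 tested members were lower and 2 higher in CD41 sp, led by Pdk1 (-1.98 ± 0.25) and Vegfa (-1.48 ± 0.29). The Vegfa call was lost under median scaling (adjusted p = 0.0837). Under median scaling 2 were lower and 1 higher, against 714 and 832 of all 9591 symbols. With the replicate block 9 were lower and 4 higher, against 21.1% and 26.5% of all symbols. Gapd (Gapdh) was not called (-0.23, adjusted p = 0.313). Of 22 MHC and interferon genes 3 were higher and 4 lower, shares near those over all symbols, and G1p2 (Isg15) differed most (2.18 ± 0.31). Without VE sp replicate 3 the MHC and interferon counts were 1 and 4, under median scaling 2 and 2, and with the replicate block 3 and 8. Immediate early genes gave 1 call of 17, Gadd45a (1.85 ± 0.34). With the block 2 were higher and 3 lower, and without VE sp replicate 3, 1 and 1. Fos, Jun and Egr1 were not called (adjusted p = 0.681, 0.475 and 0.770).

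Markers of other cell types were checked because either gate could hold them. Over all symbols 14.3% were called higher and 14.5% lower in CD41 sp, and with the replicate block 26.5% and 21.1%. The epithelial and cardiac counts lay at or below these shares. Of 17 tested endoderm genes 7 were lower in CD41 sp, among them Dab2 (-4.49 ± 0.49), Gata6 (-3.04 ± 0.28), Apoe, the secreted transferrin gene Trf (at least 5.02-fold lower) and the SoxF factors Sox7 and Sox17, which endothelium makes too. The list's mean level per array was 5.32 to 5.77 in CD41 sp and 7.11 to 7.31 in VE sp. The endoderm genes Ttr, Amn, Rbp4 and Apoa1 were not called (adjusted p = 0.705 to 0.940), at mean levels of 4.45 to 5.97, and Afp and Foxa2 did not pass the detection filter. Of 14 epithelial genes 1 was higher and 2 lower, or none and 1 without VE sp replicate 3 and under median scaling, and Cdh1 and Krt8, listed as Krt2-8, were not called. Of 15 pluripotency genes 3 were lower (Klf4, Lin28 and Dppa4). Under median scaling the Lin28 and Dppa4 calls were lost (adjusted p = 0.144 and 0.160) and 1 gene was called higher, as 1 was without VE sp replicate 3, and the Lin28 call was also lost with the authors' processed values (adjusted p = 0.141). The genes Pou5f1 and Nanog were not called, at mean levels of 4.54 to 4.98. Cardiac genes gave 1 call each way among 12 (Tnni1 higher, Isl1 lower), and with the replicate block 2 each way. Smooth muscle genes gave 4 higher and 1 lower among 12, or 4 and none without VE sp replicate 3 and under median scaling, with Acta2 not called (adjusted p = 0.844). Primitive streak and mesoderm genes gave 1 higher and 4 lower among 16, with T not called (adjusted p = 0.106). With the block 1 was higher and 8 lower, T among them (adjusted p = 0.0379). The part of other cell types in the differences was not tested.

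**Figure D4:**
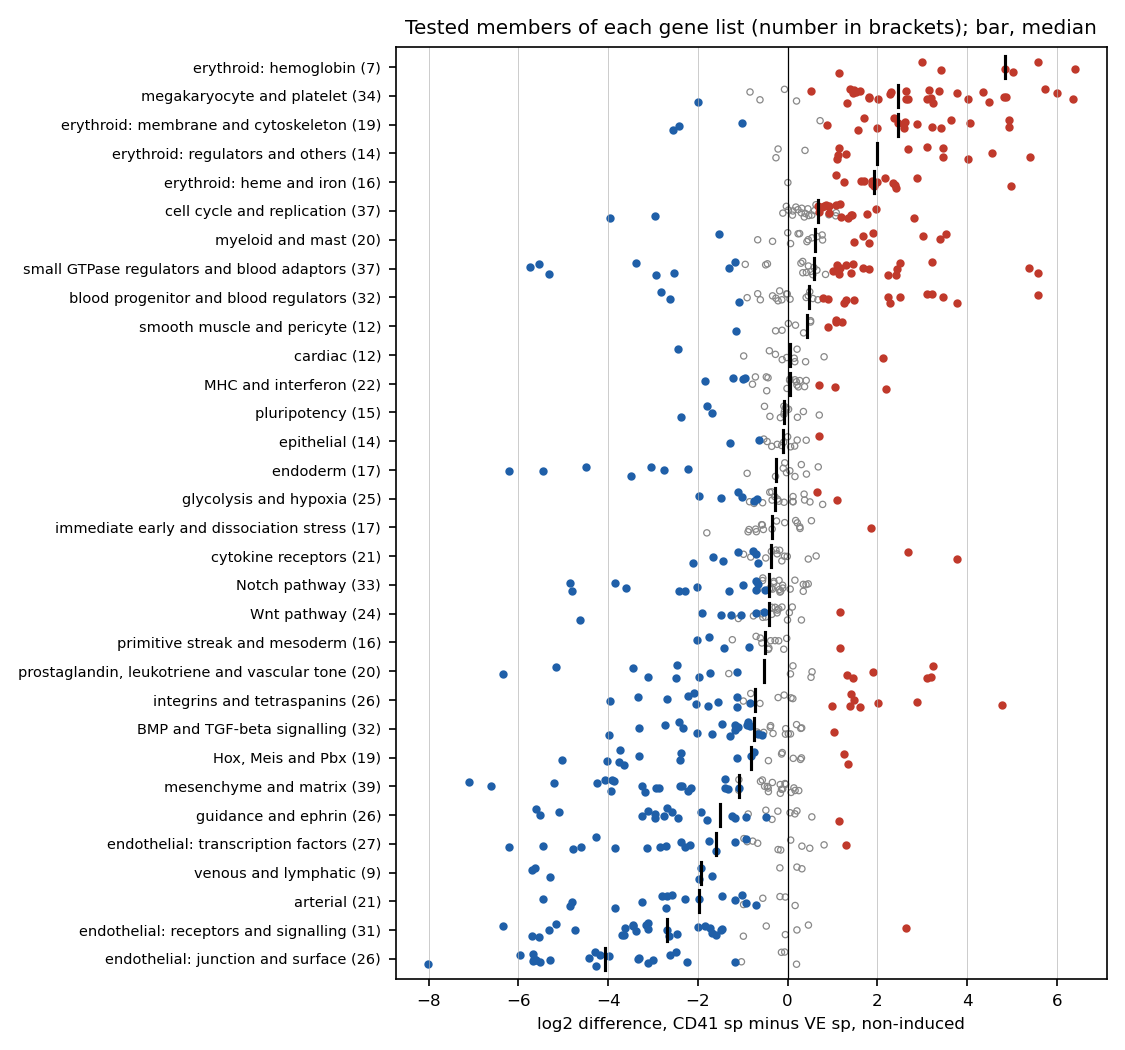
Log2 difference CD41 sp minus VE sp in non-induced cells (x axis) for every tested member of each gene list, with the number tested in brackets (red, called higher; blue, called lower; open grey, not called; bar, median). Red cell and platelet lists lie right of 0, endothelial lists left of it, and the smooth muscle, cardiac, endoderm, epithelial, pluripotency and primitive streak lists have medians between -0.50 and 0.43.

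Levels in the other non-induced fractions follow. For the 735 genes over 2-fold higher in CD41 sp the median level was 8.08 in CD41 sp, 6.10 in VE sp, 7.16 in DP and 7.19 in DN. Of the red cell genes, Hbb-y had a mean level of 13.50 there and 9.36 in DP, and Klf1 11.50 and 7.63. Of the platelet genes, Gp5 had a mean level of 5.12 in DN and 8.84 in DP, Cxcl4 4.54 and 9.38, and Treml1 4.74 and 7.86. Runx1 was at 8.48 in DP, close to its 8.31 in CD41 sp. For the 996 genes over 2-fold lower in CD41 sp the median level was 5.97 in CD41 sp, 8.31 in VE sp, 7.28 in DP and 6.92 in DN. Cdh5 was at 9.64 in DP and not detected in DN, and Sox18 was at 11.29 and 4.92. These levels are given without a test. The 735 and 996 genes were chosen by the difference between CD41 sp and VE sp, so the order of their medians in these 2 fractions was set by that choice.

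After ICN1 induction the same fractions differed at 3223 symbols (33.6%), 1493 higher (15.6%) and 1730 lower (18.0%) in CD41 sp, from 6 other arrays. These arrays share the replicate sets, the normalization and the spread estimate with the non-induced ones, so the calls are not independent. With the replicate block 5019 (52.3%) were called, 27.9% of symbols higher and 24.5% lower. Of the 1374 genes higher in non-induced CD41 sp, 991 (72.1%) were called higher in induced cells too. Of the 1389 lower ones 1244 (89.6%) were called lower, and none of the 2763 was called in the opposite direction. Genes called in both with 1 sign numbered 2235, or 80.9% of the non-induced and 69.3% of the induced calls. Cldn5 differed by -8.01 and -7.57, Cdh5 by -5.66 and -5.73, Klf1 by 4.55 and 5.04, and Gp5 by 6.00 and 5.58 without and with induction. The list of junction genes gave 21 lower calls of 26 after induction, and the platelet list 26 higher and 3 lower of 34.

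A test of whether the fraction difference itself changed with induction called 14 symbols (0.146%), 2 up and 12 down, and 493 had an unadjusted p under 0.05. With the replicate block 156 symbols (1.63%) were called. Mcpt1, a mast cell protease, had not been detected in non-induced CD41 sp or VE sp. Its mean level was 8.19 ± 0.28 (SD, n = 3) in induced CD41 sp, and it was not detected in induced VE sp. Mmp2, a matrix protease, was lower in CD41 sp in both conditions (-2.40 and -3.94). Rgs1, a regulator of G protein signalling, was higher in CD41 sp in both (2.35 and 1.21).

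The Notch targets Nrarp, Hes1 and Hey1, with Vwf and Hoxb6, were set side by side in the 2 conditions. Nrarp differed by -2.42 without and -0.64 with induction, a shift of 1.78 ± 0.47 that was not called (adjusted p = 0.211, and 0.00203 with the replicate block). Its levels in induced CD41 sp, 10.08, 9.29 and 9.88, lay near those of non-induced VE sp. Hes1 differed by -2.03 and -0.35 (adjusted p of the change 0.495, and 0.0206 with the block). Hey1 differed by -3.85 and -3.02 (adjusted p = 1.00). Vwf differed by 2.63 without and -0.68 with induction, and its levels were 5.45, 5.46 and 5.28 in non-induced and 7.69, 8.84 and 8.72 in induced VE sp. The shift of -3.30 ± 0.78 was not called (adjusted p = 0.126), and with the block its adjusted p was 0.00203. Hoxb6 differed by -3.74 and -1.79 (adjusted p of the change 0.0712, and 0.00429 with the block).

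**Figure D5:**
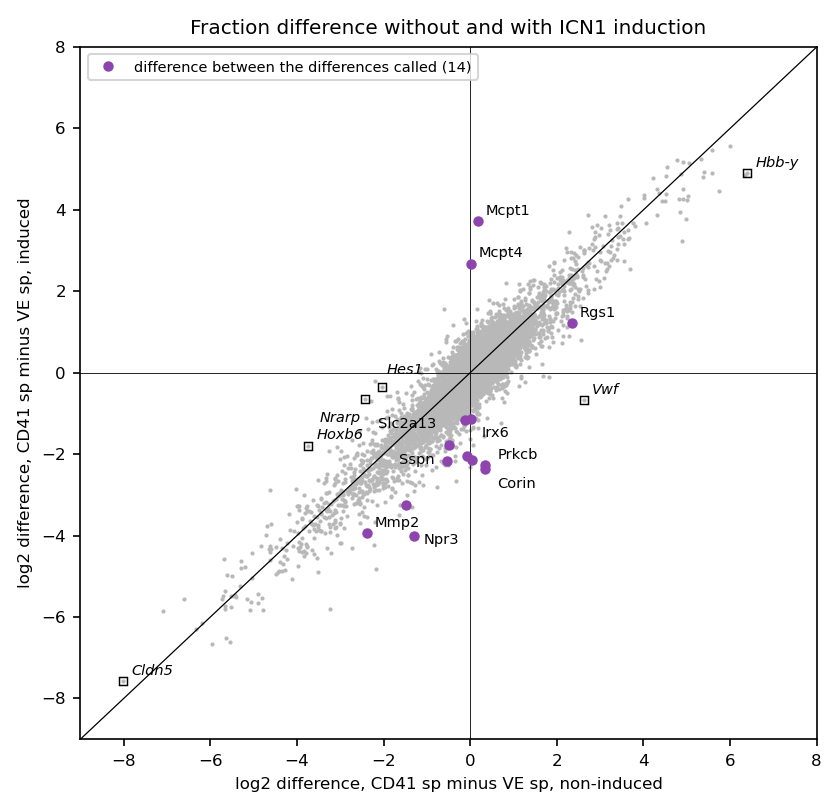
Log2 difference CD41 sp minus VE sp of each of 9591 gene symbols in non-induced (x axis) and induced cells (y axis), from separate arrays; the diagonal marks equal differences. Purple points (14) were called for a change between conditions, and open squares mark other genes the text describes.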

How the data were processed

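Messenger RNA of sorted embryoid body cells was hybridised as biotinylated cRNA to Illumina arrays, 1 array per sample, per the labels' protocols. The deposited raw tables hold probe intensity, not normalized per the file headers, and beside each value a detection p-value, again per the file headers. A further table holds the authors' processed linear intensity, whose method no source used here states.

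Raw intensities were background-corrected with limma 3.58.1 in R 4.3.3 (negative controls estimated from the detection p-values, offset 16) and quantile-normalized over 24 arrays. Of 25697 probes, 12894 were kept, each detected (p under 0.05) in every replicate of some group. The probe with the highest mean stood for a symbol, leaving 9591 of 18120. A linear model of 8 group means without a block (16 residual degrees of freedom) was fitted with lmFit and eBayes. Calls were two-sided, at an adjusted p (Benjamini-Hochberg) under 0.05. Where all probes of a gene were undetected in a group, an at-least fold was computed against, per array, the lowest detected signal or the probe's own, whichever was higher. Of the symbols, 9275 matched RefSeq names (GRCm38.p6). The fit was tested on simulated data with independent noise and no replicate effect, so that test does not cover the pairing of the arrays.

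The replicate numbers mark separate tables, and deviations of same-numbered arrays from their group means correlated at 0.554 to 0.711 in the non-induced pairs, so the numbers pair the arrays. The block was run as an alternative. Values given without mention of the block ignore this pairing, so their spread includes that between replicate sets. Arrays and gene lists were chosen with earlier results of these data known. Named are 26 standing blood, vessel and Notch genes, the 15 largest differences each way with 1 sign in all 3 pairs, up to 6 called members per list with the largest difference (or, with none called, the 2 brightest) and the 10 smallest p-values of the change with induction. Further genes named as not called, or as examples of a list, were chosen after their values were seen. Clone names were counted and passed over. A few genes taken by the rule are left unreported.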

Additional observations from a re-analysis of the deposited data

Results flagged for a closer look

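The difference between CD41 sp and VE sp was tested for a change with ICN1 induction, and the 10 genes with the smallest p-values are given as the change in the log2 difference (induced minus non-induced) with limma's adjusted p. Mcpt1 changed by 3.56 (adjusted p = 8.52e-08) and Mcpt4, another mast cell protease, by 2.67 (adjusted p = 0.0382). Both were undetected in the non-induced fractions and in induced VE sp. Prkcb changed by -2.61 (adjusted p = 1.44e-05), Corin by -2.71 (adjusted p = 0.00155) and Npr3 by -2.70 (adjusted p = 0.00863). Each of these 3 was higher on all induced VE sp arrays than on any other array of both fractions. Mmp2 changed by -1.55 (adjusted p = 0.0350) and Sspn by -1.29 (adjusted p = 0.0368). Slc2a13 changed by -1.03 (adjusted p = 0.0382), Rgs1 by -1.13 (adjusted p = 0.0384) and Irx6 by -1.15 (adjusted p = 0.0389). Slc2a13 and Irx6 were detected in induced VE sp and in none of the other 3 groups. The other 4 called symbols, named after their values were seen, were Eml1, Nedd9, Pdzrn3 and BC055811.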

How the results depend on the processing

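Of 3289 values recomputed for the genes taken by the naming rule, none changed sign where the gene was called in the main or the recomputed run. A change of sign in a gene called in neither run was not counted. Of these values 3078 kept their side of the threshold, 205 lost the call and 6 gained it. The count of genes called between non-induced CD41 sp and VE sp was 2763. It was 4566 with the replicate block, 4607 with the authors' processed values and the block (an alternative chosen after seeing the data), 1546 under median scaling (53.8% of calls higher in CD41 sp, against 49.7%) and 1339 with the authors' processed values (39.1% higher). For induced cells the count of 3223 became 5019 with the block, 1613 under median scaling (27.7% higher, against 46.3%) and 1577 with the authors' values (32.6% higher). The 14 genes whose difference changed with induction became 156 with the block, 3 under median scaling, 1 with the authors' values and 42 with array weights. Leaving out 1 array gave 2323 to 2608, 2662 to 2854 and 4 to 10 genes. The cause was not tested. With the block, among genes taken by the naming rule, Gata2 and Jag1 gained a call between the non-induced fractions and none lost one. Blocked values of other genes whose call changed stand beside their results. The list counts were repeated with the block, under median scaling, without VE sp replicate 3 and with the authors' values and the block, all chosen after seeing the data. Mcpt1 kept its call in every alternative run, while the calls of Irx6, Rgs1, Slc2a13, Mcpt4, Mmp2 and Sspn were lost under median scaling, with the authors' values and on leaving out most single arrays. With the authors' values the calls of Prkcb (adjusted p = 0.274), Corin (adjusted p = 0.771) and Npr3 (adjusted p = 0.915) were lost, that of Npr3 also under median scaling (adjusted p = 0.462). Signals near background limit Dll4, Jag1 and the undetected genes. Folds of genes undetected in a fraction are given only as bounds. Where a log2 difference or its change with induction is printed for such a gene, it includes background-level values and is imprecise.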
